A study of Mus musculus with 7 samples.

Results

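The genes described here encode cadherins and protocadherins, the calcium-dependent adhesion proteins of the cell surface. The rule that picks them uses the name and the total count only. Of the 25871 gene columns of the deposited snRNA-Seq tables that do not hold viral barcodes, 89 have a symbol made of Cdh and digits or a symbol that starts with Pcdh. The 50 of them with at least 50 unique molecular identifiers (UMIs, which count captured transcripts) over all nuclei kept are the members, out of 14713 genes at or above that count. Just inside this limit were Pcdh12 with 53 UMIs, Pcdhb15 with 84 and Pcdhb6 with 89, and just outside were Pcdhb10 with 49, Cdh23 with 44 and Cdh17 with 36. The members comprised 3 of the 5 type I classical cadherins (Cdh1, Cdh2, Cdh4), all 10 type II classical cadherins with a column, Cdh13, 4 of 4 delta-1 and 5 of 5 delta-2 protocadherins, 3 other protocadherins (Pcdh12, Pcdh15, Pcdh20), and 2 of 13 alpha, 19 of 22 beta and 3 of 22 gamma genes of the clustered protocadherins. None of the 4 other Cdh columns reached the limit. Together the 50 members held 88952 UMIs, or 31.2 of every 10000.

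Classical cadherins bind like molecules on the facing cell and connect to actin through catenins. Type I and type II members sort cells and match synaptic partners by the mix that each neuron displays. Cdh13 (T-cadherin) lacks the cytoplasmic tail and is held by a lipid anchor. Protocadherins do not bind beta-catenin in this way. The delta protocadherins act in axon growth and synapse formation, and the clustered alpha, beta and gamma genes are expressed in combinations that give single neurons a surface identity.

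Nuclei for snRNA-Seq came from the primary visual cortex (V1) of male C57BL/6J mice aged 6-10 weeks that had received 2 injections each of the PESCA library, an AAV9 pool in which 287 candidate gene regulatory elements (GREs) drive GFP, each tied to 3 barcodes. They form 1 GEO sample of 10 libraries in 2 sets of 5. The study's methods give 5 libraries per animal, but labels do not say which animal a set came from, and the sets are referred to as library set 1 and 2. ATAC-Seq, which maps accessible chromatin, was done on nuclei from whole cortex of uninjected F1 mice aged 6-12 weeks from crosses of Sst-IRES-Cre, Pv-Cre or Vip-IRES-Cre with SUN1-2xsfGFP-6xMYC. Nuclei that carry the Cre-dependent SUN1 fusion are pulled down through its GFP (INTACT), so a group is the nuclei that its Cre line marks, and all 3 groups carry the fusion. There were 2 samples per line, labelled male, each from 1 animal according to the methods. RNA levels thus refer to V1 and accessibility to the whole cortex of other animals.

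Of 47348 barcodes, 32335 nuclei with more than 200 UMIs were kept, with a median of 712 UMIs. The libraries held 2496224 to 3041931 UMIs. Of 25866 barcode names, 5476 (21.2%) occurred in more than 1 library. Nuclei were assigned by marker gates that use no cadherin: 763 SST, 432 PV, 416 VIP and 362 NPY interneurons, 572 layer 2/3, 198 layer 4, 185 layer 5 intratelencephalic (IT), 219 layer 5 pyramidal tract (PT) and 554 layer 6 excitatory neurons, 5624 excitatory neurons with no layer, 1545 astrocytes, 1524 oligodendrocytes, 120 oligodendrocyte precursor cells (OPCs), 291 microglia and 430 endothelial nuclei. A further 19100 nuclei passed no gate, and 0 passed 2 gates. The NPY class holds only nuclei with Npy and without any Sst, Vip or Pvalb UMI, and nuclei of the other classes may hold Npy. Of 36 pairs of a type and a marker kept out of the gates, 29 had the marker highest in that type and 35 had it among the 3 highest of 14 types. Cux2, Lamp5 and Fezf2 were each paired with 2 types, so each could be highest in only 1 of them. Cux2 and Lamp5 were the markers paired with layer 2/3. For the layers 4 of 9 pairs had the marker highest in that layer, and no marker kept out of the gates was highest in its own type for layer 2/3, layer 5 IT or layer 6. The layer gates were the loosest, with 24.2% (layer 5 PT) to 53.0% (layer 4) of nuclei at the minimum of 2 marker UMIs. In the ATAC-Seq samples, reads near Sst, Pvalb and Vip were highest in both samples of the matching line.

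A level is given as UMIs of a gene per 10000 UMIs of the nuclei in a gate, over all libraries, with an exact Poisson 95% interval. All nuclei belong to 1 sample, so no test was made and intervals cover counting error only. A member counts as higher or lower in a comparison when its level differed at least 2-fold over all libraries and lay on the same side in both library sets. Levels come from 3′ ends of transcripts and are not compared between genes. The map of all 50 members shows where each gene was highest among the gated types.

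**Figure D1:**
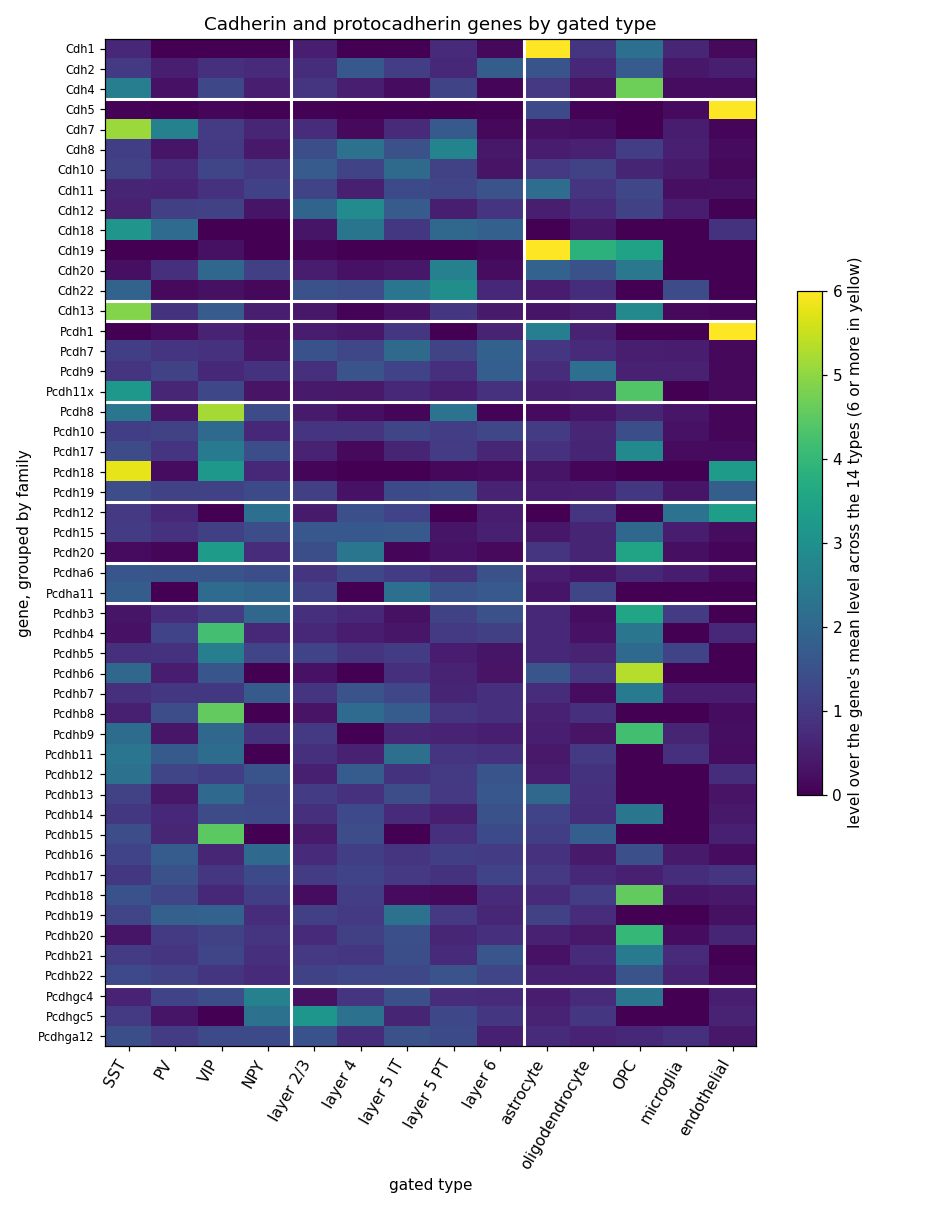
Level of each of the 50 genes (rows, by family) in the 14 gated types (columns), divided by that gene's mean over the types, with colour from 0 to 6 or more. Cdh5 and Pcdh1 were brightest in endothelial nuclei, Cdh1 and Cdh19 in astrocytes, Cdh7, Cdh13 and Pcdh18 in SST interneurons, and Pcdh8 in VIP interneurons. The OPC column rests on 120 nuclei.

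The first comparison set the 4 interneuron gates against all excitatory neurons. Interneurons had more Cdh4, Cdh7, Cdh13, Pcdh8, Pcdh11x, Pcdh17, Pcdh18, Pcdhb4, Pcdhb9 and Pcdhb18, and less Cdh8, Cdh12, Pcdh1 and Pcdhgc5. That is 10 of 46 members compared (21.7%) higher, where 6.74% of all 13109 genes compared were higher, and 4 of 46 (8.7%) lower, where 8.61% of all genes were lower. The median log2 fold was 0.10 over the members and −0.02 over all genes. Cdh5, Cdh19, Pcdh12 and Pcdhb6 had too few UMIs in neurons to be compared.

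The largest difference was that of Pcdh18, a delta-2 protocadherin. Over the 10 libraries its level in interneurons ranged from 0.512 to 1.38 per 10000 with a median of 1.03, and in excitatory neurons from 0 to 0.0586 with a median of 0.0304. No excitatory value reached the lowest interneuron value. The levels of 0.953 [0.824-1.10] and 0.0295 [0.0194-0.0429] differed 32.4-fold (95% interval 21.6-50.3), by 32.6-fold in library set 1 and 32.2-fold in set 2. The other delta-2 genes that were higher were Pcdh8 (arcadlin, a protocadherin induced by neuronal activity) at 5.13-fold (4.30-6.13) and Pcdh17 at 2.60-fold (2.28-2.96). Pcdh8 ranged from 0.985 to 1.85 across libraries in interneurons and from 0.150 to 0.471 in excitatory neurons, again without overlap. Pcdh10 and Pcdh19 completed the family, and Pcdh10, at 1.04-fold, had the smallest difference in it.

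Among the cadherins that were higher, Cdh13 rests on the most UMIs, 580 in interneurons. There it ranged from 2.11 to 4.25 per 10000 (median 2.82) and in excitatory neurons from 0.380 to 0.772 (median 0.529), which is 5.24-fold (4.64-5.92). Cdh7, a type II cadherin, was 5.29-fold higher (4.18-6.72), with 0.428 to 1.10 against 0.0572 to 0.202. For both genes the 2 groups of libraries were apart. Cdh4 (R-cadherin) was the type I cadherin that was higher, at 2.38-fold (1.97-2.88). Pcdhb18 was higher at 2.54-fold (1.72-3.71), but 1 library had no Pcdhb18 UMI in interneurons and the ranges overlapped.

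Excitatory neurons held more of 2 type II cadherins. Cdh12 (N-cadherin 2) had 0.895 per 10000 [0.835-0.958] in excitatory neurons and 0.399 [0.317-0.495] in interneurons, 2.24-fold less, and its libraries ranged from 0.740 to 1.15 and from 0.179 to 0.657 without overlap. Cdh8 was 2.06-fold lower in interneurons, and its library ranges of 0.251 to 0.714 and 0.623 to 1.28 overlapped. Pcdhgc5, of the gamma cluster, was 2.94-fold lower on only 9 interneuron UMIs. Pcdh1, a delta-1 gene, was 2.86-fold lower on 4 interneuron UMIs, all in library set 1, and its fold interval of 0.0917 to 0.951 nearly reached 1. Cdh22, at 1.91-fold lower, and Pcdh7, at 1.77-fold lower, did not reach the 2-fold limit, as the plot of folds shows. Leaving out a single library took Pcdhb4 to 1.80-fold, Pcdh11x to 1.91-fold and Pcdhb9 to 1.92-fold, under the limit, and Cdh8 to 0.505 times the excitatory level. The pooled values did not hold in every interneuron class. Pcdh18 was at 1.90 in SST and 1.05 in VIP interneurons. In PV interneurons it was at 0.0523 times, and in NPY at 0.204 times, the level of the other interneuron classes. Cdh7 in NPY interneurons was at 0.189 times the level of the other classes. The 32.4-fold and 5.29-fold values of these genes are thus not those of each class. Pcdh8 was at 0.239 [0.131-0.401] in PV interneurons next to 0.260 [0.228-0.295] in excitatory neurons, Cdh13 at 0.564 [0.345-0.871] in NPY interneurons next to 0.538 [0.492-0.588], and Cdh4 at 0.171 [0.0819-0.314] in PV interneurons next to 0.343 [0.306-0.383].

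**Figure D2:**
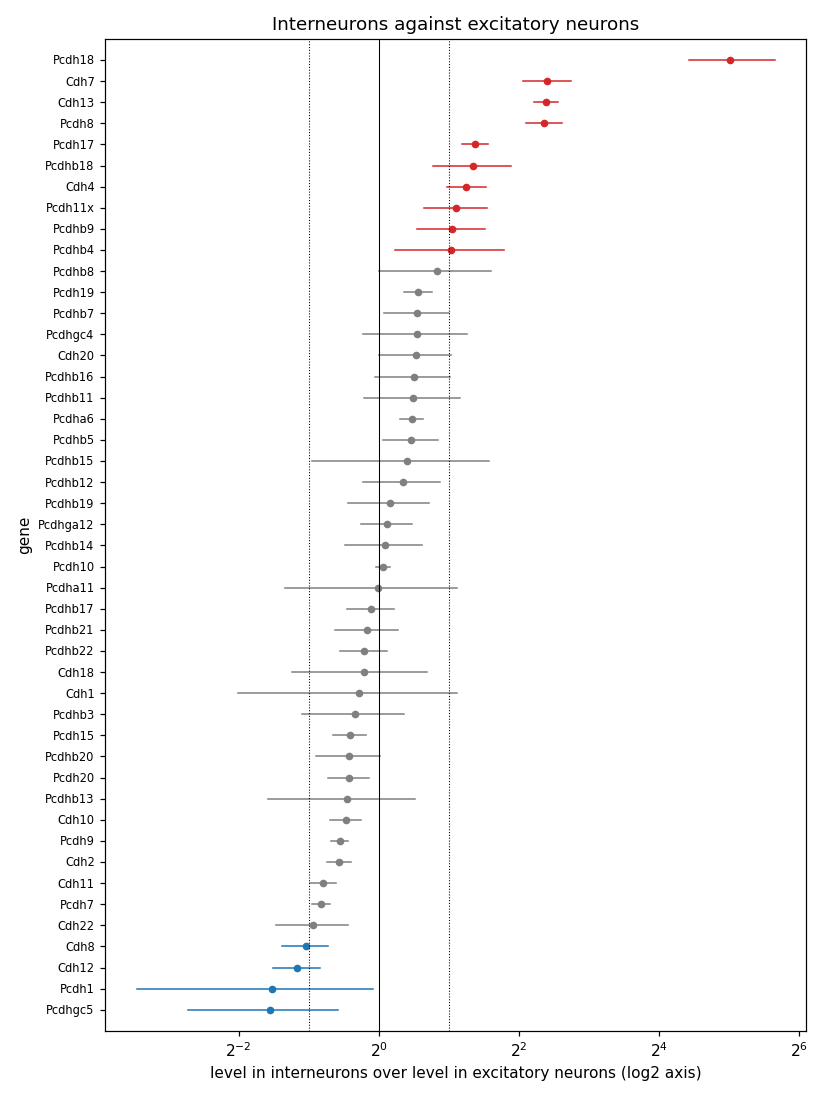
Level in interneurons over level in excitatory neurons for the 46 genes compared (log2 axis), with 95% counting intervals. Red points were higher and blue points lower by at least 2-fold over all libraries (dotted lines) and on the same side in both library sets, and Pcdh18, at 32.4-fold, stands beyond all others.

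The second comparison asked which members mark 1 interneuron class among the 4. Across the classes, 12 of 39 members compared (30.8%) were higher in at least 1 class, against 14.9% of all genes. SST interneurons had 8 of 39 members higher (20.5%, background 3.99%) and VIP interneurons 4 of 34 (11.8%, background 4.39%). PV interneurons had 0 of 39 (background 5.18%) and NPY interneurons 0 of 34 (background 3.34%). Lower members numbered 7 of 39 in SST (17.9%, background 6.84%), 9 of 39 in PV (23.1%, background 8.8%), 3 of 34 in VIP (8.82%, background 11.6%) and 10 of 34 in NPY interneurons (29.4%, background 7.0%). The lower members in PV interneurons were Cdh4, Cdh8, Cdh13, Cdh22, Pcdh8, Pcdh11x, Pcdh18, Pcdh20 and Pcdhb9, and those in NPY interneurons were Cdh4, Cdh7, Cdh8, Cdh12, Cdh13, Cdh22, Pcdh7, Pcdh11x, Pcdh18 and Pcdhb19. Each class was set against the other 3, so these comparisons share nuclei. Leaving out a single library ended the lower calls of Cdh22 in PV and in VIP and of Cdh8 and Pcdhb19 in NPY interneurons. These are counts past a fold and were not tested.

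In SST interneurons the higher members were Cdh4, Cdh7, Cdh8, Cdh13, Cdh22, Pcdh11x, Pcdh18 and Pcdhb9. Cdh13 was at 4.40 to 7.16 per 10000 over the 10 libraries (median 5.61) in SST, 0.423 to 2.26 in PV, 1.05 to 2.90 in VIP and 0 to 1.49 in NPY interneurons. Every SST value was above every value of the other 3 classes. The fold was 4.92 (4.07-5.99), with 5.37 in set 1 and 4.63 in set 2. Pcdh18 was at 0.852 to 2.97 in SST and 0 to 1.72 in VIP interneurons, which overlapped, and had only 4 UMIs in PV and 8 in NPY interneurons. Its fold was 5.15 (3.69-7.32).

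Cdh22 (PB-cadherin) was 10.4-fold higher in SST interneurons, the largest ratio of the class, but rests on 32 UMIs against 5 (interval 4.02-34.2) and ranged from 8.17 to 17.0-fold when single libraries were left out. Its level in SST was 0.607 in set 1 and 0.223 in set 2. Excitatory neurons as a whole were at 0.344 [0.307-0.384], within the interval of SST interneurons (0.409 [0.280-0.577]). Pcdh11x was 4.40-fold (2.47-8.19), Cdh4 4.19-fold (2.97-5.99), Cdh7 3.04-fold (2.17-4.30), Pcdhb9 2.26-fold (1.28-4.05) and Cdh8 2.05-fold (1.31-3.23) higher. Without library 5 of set 2 Pcdhb9 was 1.59-fold higher, and without library 2 of set 2 Cdh8 was 1.86-fold higher, both under the limit. PV interneurons also held Cdh7, at 0.683 [0.488-0.930], next to 1.32 [1.07-1.60] in SST, while VIP and NPY were at 0.270 and 0.169.

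The VIP class had Pcdh8, Pcdh20, Cdh20 and Pcdhb5. Pcdh20 was at 1.15 to 4.78 per 10000 across libraries (median 2.30) in VIP, 0 to 0.339 in SST, 0 to 0.180 in PV and 0 to 0.969 in NPY interneurons. The VIP libraries were all above those of the other classes, and the fold was 12.5 (8.27-19.2). Pcdh8 was at 1.86 to 5.47 in VIP interneurons (median 3.30), 0.749 to 2.31 in SST, 0 to 0.541 in PV and 0 to 1.70 in NPY. Its levels over all libraries were 3.33 [2.74-4.01] in VIP, 1.51 [1.25-1.80] in SST, 0.874 [0.594-1.24] in NPY and 0.239 [0.131-0.401] in PV, in that order. These intervals did not overlap, while the library ranges of each neighbouring pair did. Cdh20 (3.26-fold, 1.67-6.20) and Pcdhb5 (2.75-fold, 1.62-4.56) rest on 17 and 25 VIP UMIs. Pcdh10 (OL-protocadherin) was 1.98-fold (1.72-2.27) and Pcdh17 1.97-fold (1.56-2.49) higher in VIP, just under the limit.

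As a family, the 5 delta-2 genes summed to 17.0 per 10000 [15.6-18.5] in VIP interneurons, 11.1 [10.4-11.9] in SST, 7.43 [6.75-8.16] in PV and 7.11 [6.26-8.04] in NPY, and to 6.56 [6.36-6.76] in excitatory nuclei without a layer. PV and NPY could not be told apart within these intervals. A sum gives most weight to the gene with the most UMIs. Pcdh10 alone made up 8.32 of the VIP sum, and 12558 of the 19193 delta-2 UMIs in all nuclei kept. The 24 clustered members together varied less among neurons, from 4.22 [3.65-4.86] in layer 5 PT to 7.18 [6.30-8.15] in VIP. The alpha and gamma genes end in shared constant exons (the 2 alpha members share their last exon end, and so do the 3 gamma members), so 3′ counts cannot cleanly separate the single genes.

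**Figure D3:**
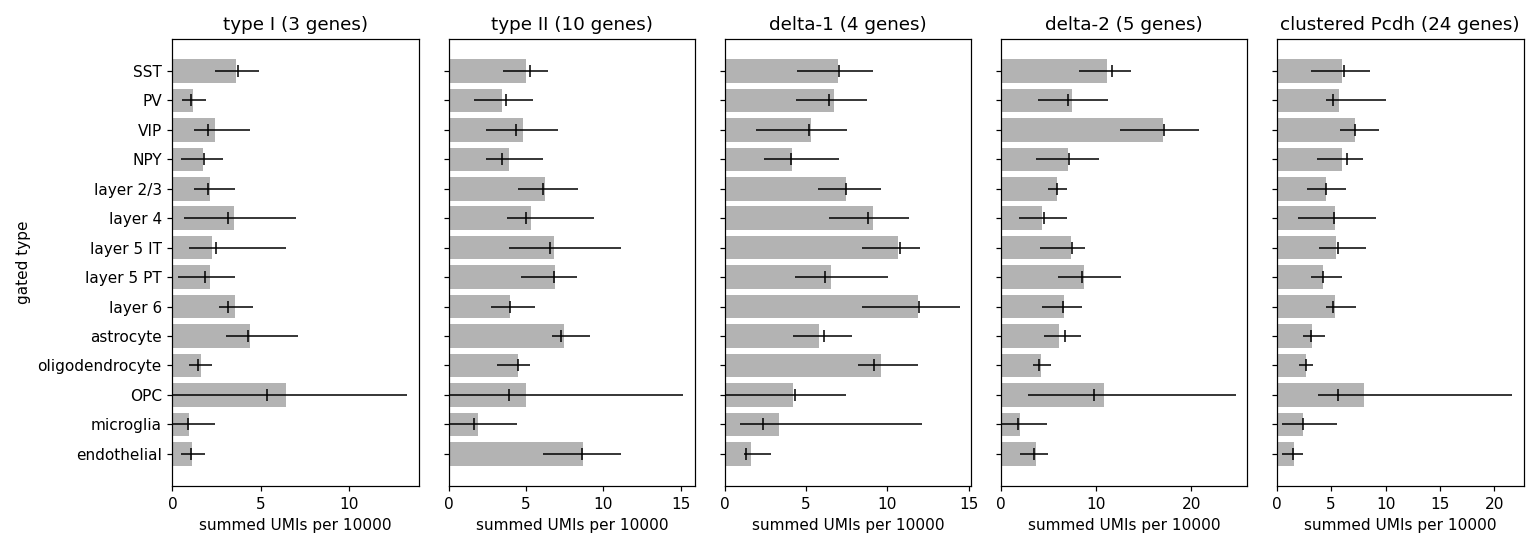
Summed level of each family (UMIs per 10000) in the 14 gated types; the bar is the level over all nuclei, the line spans the lowest to the highest of 10 libraries and the tick is their median. Delta-2 genes were highest in VIP interneurons among neurons, at 17.0, and clustered genes lowest in endothelial nuclei, at 1.55.

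Between the 5 layer gates of excitatory neurons, 12 of 39 members (30.8%) were higher in at least 1 layer, where 14.5% of all genes were. The counts were 4 of 39 in layer 2/3 (background 4.85%), 2 of 24 in layer 4 (2.39%), 0 of 27 in layer 5 IT (2.02%), 7 of 32 in layer 5 PT (4.69%) and 1 of 38 in layer 6 (3.04%). Lower members numbered 4 of 39 in layer 2/3 (background 5.31%), 5 of 24 in layer 4 (8.69%), 4 of 27 in layer 5 IT (5.63%), 4 of 32 in layer 5 PT (6.99%) and 12 of 38 in layer 6 (10.5%). Those of layer 6 were Cdh4, Cdh7, Cdh8, Cdh10, Cdh20, Cdh22, Pcdh8, Pcdh15, Pcdh20, Pcdhb5, Pcdhga12 and Pcdhgc5, the last at 0.719 times the other layers without library 1 of set 2. Layer 5 PT neurons, which project out of the cortex, stood out with Cdh4, Cdh7, Cdh8, Cdh13, Cdh20, Cdh22 and Pcdh8. In layer 6, Cdh8 was at 0.217 [0.129-0.343] and in layer 5 PT at 1.50 [1.16-1.90].

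Pcdh8 ranged from 0.333 to 2.66 per 10000 over the libraries of layer 5 PT (median 1.24), and was at most 0.306 in those of layer 5 IT, 0.148 in layer 6, 0.599 in layer 2/3 and 1.01 in layer 4. The libraries of layer 2/3 and layer 4 overlapped those of layer 5 PT, and those of layer 5 IT and layer 6 did not. With 67 UMIs against 33 in the other layers it was 10.2-fold higher (6.63-16.0), by 6.06-fold in set 1 and 15.7-fold in set 2. Cdh20, a type II cadherin, ranged from 0.288 to 1.03 in layer 5 PT and was 7.93-fold higher (4.32-14.9). Cdh7 was 3.72-fold higher (1.98-6.89), although 5 of the 10 layer 5 PT libraries had no Cdh7 UMI and, without library 2 of set 2, it was 2.56-fold higher and no longer on the same side in both sets. The remaining 4 were 2.28 to 2.71-fold higher, with Cdh13 at the upper end.

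Among the layers, Pcdh20 was highest in layers 4 and 2/3. In layer 4 it ranged from 0 to 3.16 (median 1.69) and in layer 2/3 from 0.653 to 1.80 (median 0.985), against at most 0.453 in layer 5 IT, 0.617 in layer 5 PT and 0.348 in layer 6. The folds were 3.72 (2.58-5.27) for layer 4 and 2.97 (2.16-4.12) for layer 2/3. Cdh12 was 2.22-fold higher in layer 4 (1.52-3.16), with 2 libraries at 0. In layer 2/3, Cdh4 (2.05-fold), Pcdhb5 (2.13-fold, 1.25-3.62) and Pcdhgc5 (2.71-fold, 1.14-6.60) were also higher, the last on 14 UMIs of which 6 came from library 1 of set 2. Without that library Pcdhgc5 was 1.85-fold higher, under the limit, and in set 1 alone 1.34-fold. Leaving out a single library also took Cdh4 to 1.85-fold and Pcdhb5 to 1.79-fold in layer 2/3, Cdh12 to 1.93-fold in layer 4 and Cdh22 to 1.96-fold in layer 5 PT. Pcdhb18 in layer 6 was 2.53-fold higher on 11 UMIs, its interval of 0.977 to 6.65 included 1, and it fell to 1.57-fold without library 5 of set 1 and 1.61-fold without library 3 of set 2.

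**Figure D4:**
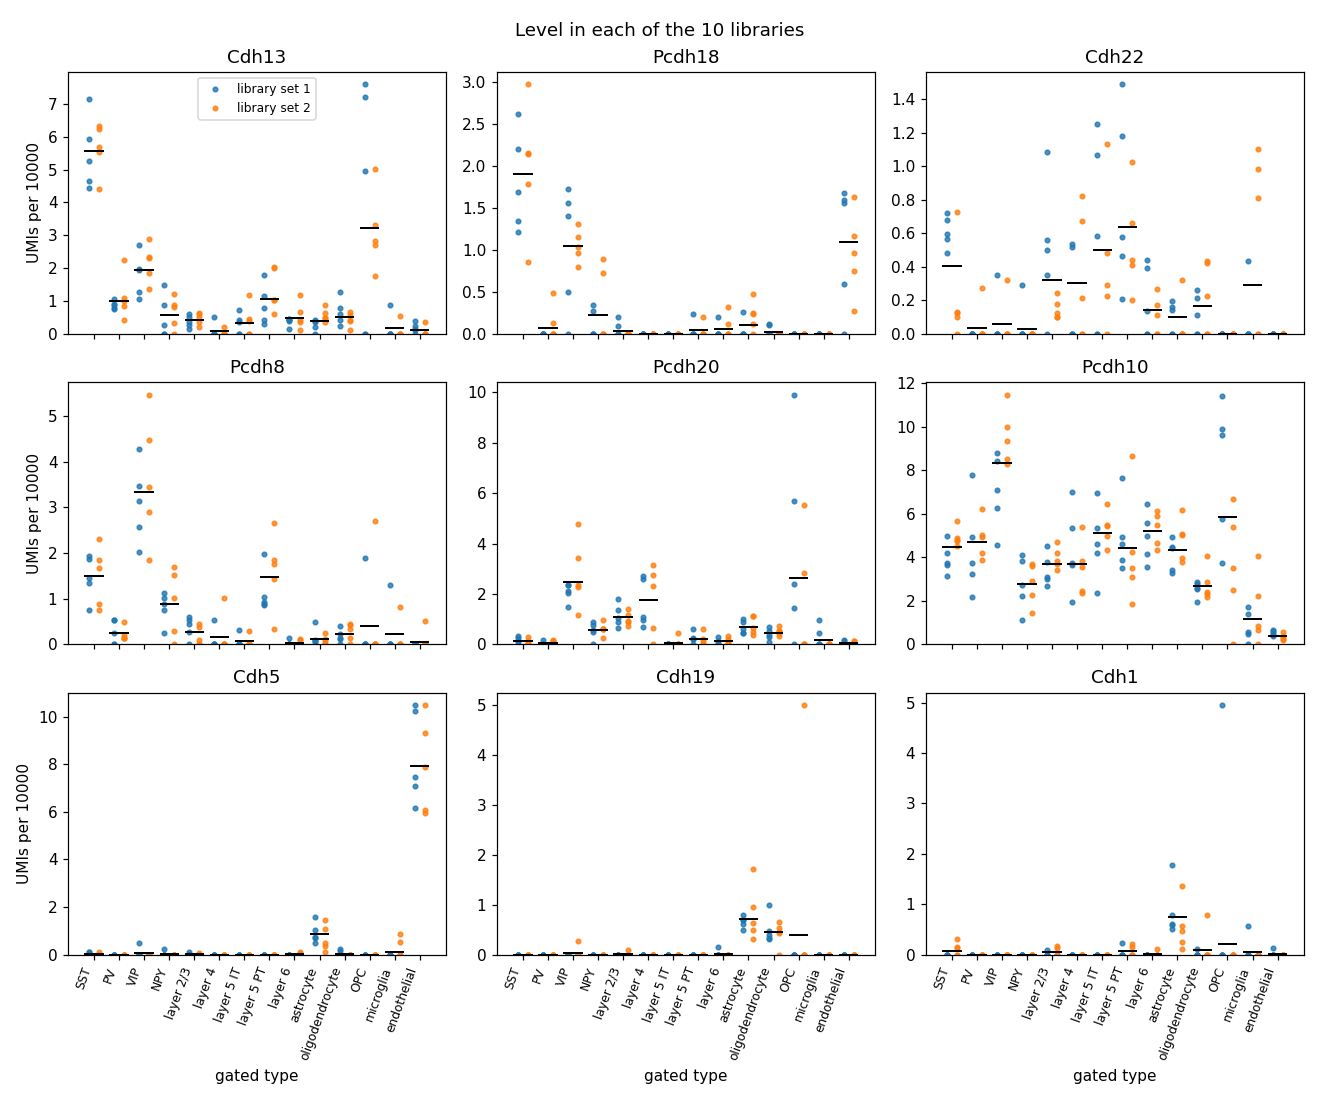
Level (UMIs per 10000) of 9 named genes in each of the 10 libraries, by gated type, with library set 1 in blue and set 2 in orange; the black line is the level over all libraries. SST values of Cdh13 lay above those of the other interneurons in every library, VIP values of Pcdh20 likewise, and Cdh5 was at 5.94 to 10.5 in endothelial nuclei.

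Glial and endothelial nuclei were each set against all gated neurons. Most members were lower there: 37 of 46 (80.4%) in at least 1 type, where 50.4% of all genes were, and 6 of 46 (13.0%) were higher in at least 1 type, where 27.4% of all genes were. Endothelial nuclei had 30 of 40 members lower (background 39.3%) and 3 higher (background 17.0%), microglia 16 of 20 lower (33.2%) and 0 higher (7.1%), oligodendrocytes 17 of 41 lower (18.5%) and 1 higher (7.86%), astrocytes 15 of 46 lower (25.2%) and 5 higher (13.3%), and OPCs 3 of 8 lower (31.6%) and 0 higher (6.5%). Few members could be compared in OPCs because at least 5 UMIs had to be expected there. Among those not compared, Cdh13 was at 3.22 per 10000 [1.84-5.23] in OPCs on 16 UMIs and at 0.956 in neurons, and Pcdh20 at 2.62 [1.39-4.47] on 13 UMIs and at 0.720. The same rule kept Cdh19 out of the oligodendrocyte counts, although it was at 0.446 in oligodendrocytes and 0.00891 in neurons. The glial gates were shallow, with median UMIs per nucleus of 326 in oligodendrocytes and 387 in astrocytes. Barcodes at or below 200 UMIs, which can hold free RNA, had 4.34 per 10000 of the clustered genes, more than the 3.19 in astrocytes, 2.64 in oligodendrocytes and 1.55 in endothelial nuclei.

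In endothelial nuclei Cdh5 (VE-cadherin, of the junctions between endothelial cells) was at 5.94 to 10.5 per 10000 over libraries (median 7.69) and in neurons at 0 to 0.0379. The levels of 7.91 [7.26-8.60] and 0.0143 [0.00815-0.0232] differed 555-fold (339-978). Pcdh1 followed at 15.0-fold (10.1-22.4), with 0.321 to 1.27 in endothelial nuclei and 0.0257 to 0.100 in neurons, which did not overlap. Pcdh18 was 5.52-fold higher (4.20-7.19), at 1.10 [0.865-1.37], close to the 1.05 [0.732-1.46] of VIP interneurons, and below SST at 1.90 [1.61-2.23]. The endothelial gate held the astrocyte marker list at 18.2 per 10000 with 7 of its 8 genes detected (neuron gates 0.687 to 2.46) and the oligodendrocyte list at 7.74 with 7 of 10 (neuron gates 0.378 to 1.32). Their part in these levels was not tested. Pcdh18 itself was at 0.109 [0.0543-0.195] in the astrocyte gate and 0.0241 [0.00292-0.0871] in the oligodendrocyte gate. Pcdh12, an endothelial protocadherin, had 53 UMIs in all and was not compared. Among the members that were lower, Pcdh10 was 11.7-fold, Pcdh7 11.9-fold and Pcdh9 9.46-fold lower in endothelial nuclei than in neurons. Pcdh19 was not lower. It was at 1.91 in endothelial nuclei, its highest level of the 14 types, next to 1.50 in layer 5 PT and 1.48 in SST.

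Astrocytes had more Cdh1, Cdh5, Cdh19, Cdh20 and Pcdh1. Cdh19, a type II cadherin known from the Schwann cell lineage, was at 0.316 to 1.72 per 10000 over libraries (median 0.659) and in neurons at 0 to 0.0236, an 81.0-fold difference (41.6-176). Oligodendrocytes held Cdh19 too, at 0.446 [0.314-0.615] next to 0.00891 in neurons, but too few UMIs were expected there for it to be compared. Cdh1 (E-cadherin, of epithelia) was 26.0-fold higher in astrocytes (17.0-40.7), at 0.119 to 1.78 over libraries, and in endothelial nuclei it was at 0.0144 on 1 UMI. Cdh5 in astrocytes was at 0.871, 61.0-fold above neurons (35.6-111), and 0.123 to 1.58 over libraries.

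The endothelial marker list was at 1.04 per 10000 in the astrocyte gate with 8 of its 9 genes detected, against 176 in the endothelial gate and 0.289 to 0.661 in the neuron gates. In the 1486 of 1545 astrocyte nuclei without any UMI of that list, Cdh5 was at 0.451 and Cdh1 at 0.360, about as much below the full gate in both, while Cdh19 was at 0.800 and Pcdh1 at 0.293. These 1486 nuclei held 40 of the 88 Cdh5 UMIs and 32 of the 75 Cdh1 UMIs of the gate, so few nuclei held the rest. The part of endothelial RNA in these levels was not tested. Cdh20 was 2.98-fold higher in astrocytes (2.12-4.11) and 2.34-fold higher in oligodendrocytes (1.55-3.44). Pcdh9 was at 7.15 [6.58-7.75] in oligodendrocytes, its highest level of the 14 types, and at 5.87 [5.36-6.42] in layer 6.

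The catenins, a list of 7 genes that are not members, are the partners of classical cadherins inside the cell. In endothelial nuclei 4 of 6 compared were higher (background 17.0%) and 2 lower (background 39.3%). The higher ones were Ctnna1 (20.1-fold), Jup (9.82-fold), Ctnnb1 (9.44-fold) and Ctnnd1 (4.71-fold), and the neuronal forms Ctnna2 and Ctnnd2 were lower, at 0.0719 and 0.104 times the neuronal level. Ctnna1 and Jup were the 2 of 6 higher in astrocytes (4.76-fold and 2.58-fold, background 13.3%) and in oligodendrocytes (4.17-fold and 4.89-fold, background 7.86%). In OPCs 2 of 3 were higher (background 6.5%), Ctnnb1 at 2.22-fold and Ctnna2 at 2.41-fold on 12 UMIs (1.56-fold without library 2 of set 1), and 0 lower (background 31.6%). In microglia 1 of 5 was higher (background 7.1%), Ctnna1 at 2.82-fold, and 2 were lower (background 33.2%), Ctnna2 at 0.470 and Ctnnd2 at 0.271. Ctnna2 there rests on 8 UMIs, and leaving out any 1 of 5 libraries ended its call (0.532 without library 2 of set 1). Ctnna2 was at 0.601 times the neuronal level in astrocytes and 1.03 in oligodendrocytes, and Ctnnd2 at 1.24 and 0.562, none of them past the limit. Between interneurons and excitatory neurons 0 of 7 were higher (background 6.74%) and 2 lower (background 8.61%), Ctnnd1 at 0.434 and Jup at 0.477 times the excitatory level. Leaving out any 1 of 4 libraries ended the Jup call, with 0.531 without library 4 of set 1. Of 8 atypical cadherins compared between interneurons and excitatory neurons, 1 was higher (background 6.74%), Fat4 at 2.30-fold (1.58-3.32), and 0 were lower (background 8.61%). Without library 1 of set 1 Fat4 was 1.80-fold higher, under the limit. In astrocytes 1 of 8 was higher (background 13.3%), Celsr1 at 51.8-fold (29.4-97.4), and 4 were lower (background 25.2%), with Celsr3 at 0.216, Clstn2 at 0.227, Fat3 at 0.366 and Clstn3 at 0.377 times the neuronal level. Fat3 rests on 3 astrocyte UMIs, and its interval of 0.0741 to 1.10 included 1. In endothelial nuclei 1 of 7 was higher (background 17.0%), Fat4 at 3.00-fold, and 5 were lower (background 39.3%), namely Celsr2, Celsr3, Clstn1, Clstn2 and Clstn3. In oligodendrocytes 0 of 7 were higher (background 7.86%) and 3 lower (background 18.5%).

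ATAC-Seq reads were counted by the authors on 323369 regions, of which 40338 had enough reads to test. Gene bodies of the members hold 1088 regions, with 46 of 50 members having at least 1, and 117 of these were tested. Each line was compared with the mean of the other two in an edgeR quasi-likelihood fit with Benjamini-Hochberg adjustment over all 40338 regions. VIP nuclei had 30 member regions more accessible (25.6%, background 24.9%) and 32 less (27.4%, background 24.0%). PV nuclei had 26 more (22.2%, background 17.1%) and 17 less (14.5%, background 11.7%), and SST nuclei 9 more (7.69%, background 8.15%) and 4 less (3.42%, background 5.41%). The members' shares were close to those of all regions for VIP and SST and somewhat above for PV, and were not tested. The PV counts of 26 and 17 became 10 and 5 of 169 without PV replicate 1 (background 4.35% and 3.18%) and 10 and 7 of 167 without PV replicate 2 (6.76% and 3.55%), and 31 of 171 were lower without SST replicate 1 (14.7%). Without VIP replicate 1, 17 of 165 were higher in PV (11.3%) and 19 lower in VIP (11.8%), without VIP replicate 2, 17 of 154 were lower in VIP (9.49%), and without SST replicate 2, 49 of 165 were higher in VIP (28.4%). DESeq2 called 1 higher and 0 lower of 115 in SST (background 0.996% and 0.971%), 4 and 7 of 77 in PV (3.33% and 9.97%), and 29 and 2 of 235 in VIP (10.2% and 2.94%), these 2 being a Cdh22 intron and the start of Pcdh7. Its log2 differences were shifted from those of edgeR by a median of 0.26 in VIP, −0.19 in PV and −0.06 in SST over all tested regions. Cdh4 and Cdh13, long genes with 19 and 18 tested regions, gave the most calls, 7 more and 6 less accessible in VIP for Cdh4, and 7 more and 5 less for Cdh13. The 3 comparisons use the same 6 samples. Called regions need not regulate the gene they lie in.

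The smallest p in VIP nuclei was that of a Cdh4 intron (chr2:179828778-179829514, GRCm38, 387 kb into the gene). In normalised reads per 1000000 it had 46.3 and 54.1 in the VIP samples, 3.58 and 2.48 in SST and 2.08 and 1.55 in PV. Both VIP samples were far above the others, and the log2 difference was 4.37 ± 0.35 (SE, adjusted p = 6.9e-08 by edgeR). A Cdh13 intron (chr8:119035001-119035822) had 24.5 and 21.6 in VIP, 1.43 and 1.24 in SST and 0 and 0.776 in PV, with a log2 difference of 4.85 ± 0.52 (adjusted p = 1.5e-06). A Cdh20 intron (chr1:104838750-104839686) had 17.7 and 30.6 in VIP against at most 1.86 elsewhere, 4.78 ± 0.53 (adjusted p = 2.4e-06). In contrast, other Cdh13 introns were nearly without reads in VIP: chr8:118809534-118810316 had 0 and 0.601 in VIP, 11.8 and 11.6 in PV and 5.01 and 4.34 in SST (−4.21 ± 0.82, adjusted p = 0.00048), which DESeq2 did not call. A Cdh22 intron (chr2:165152740-165153535) had 0.681 and 0.601 in VIP and at least 8.59 in the other 4 samples (−4.18 ± 0.70, adjusted p = 0.00014). Cdh13 thus held regions of either kind, and the plot of named regions shows both.

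**Figure D5:**
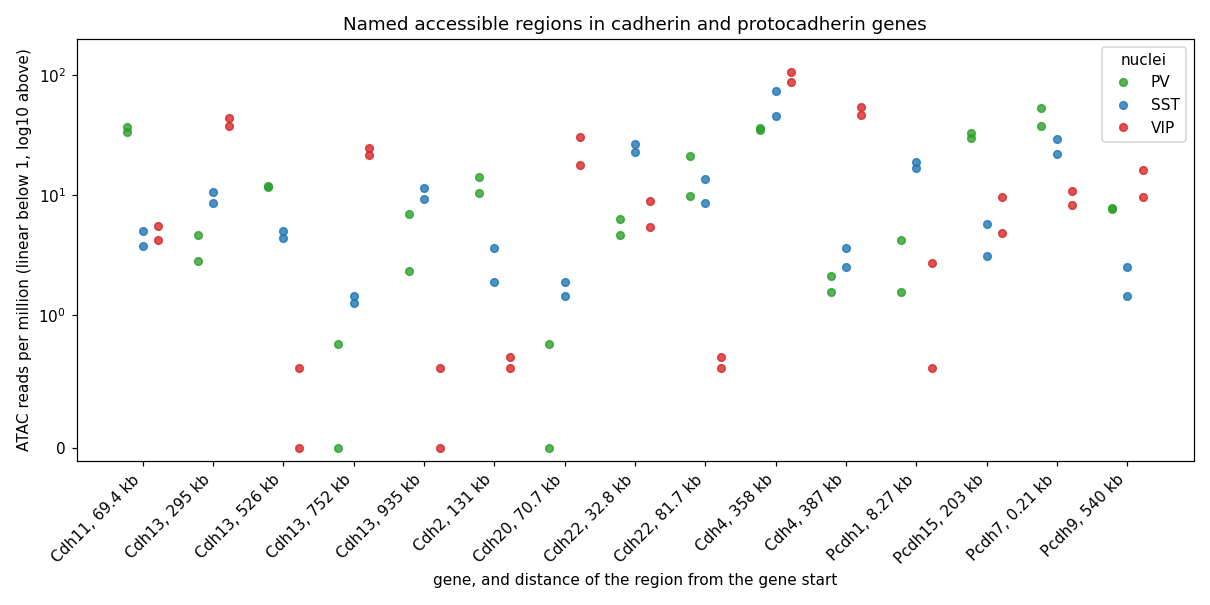
Normalised ATAC-Seq reads per 1000000 (linear below 1, log10 above) at the named regions in each of the 6 samples, 2 per line, labelled by gene and distance from its start. The Cdh4 region at 387 kb and the Cdh13 region at 752 kb were high in both VIP samples, while the Cdh11 region at 69.4 kb was high in both PV samples.

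In PV nuclei a Cdh11 intron (chr8:102715766-102716674) led, with 36.8 and 33.4 in PV, 5.01 and 3.72 in SST and 5.45 and 4.20 in VIP (log2 difference 2.92 ± 0.33, adjusted p = 5.1e-05). Transcripts of Cdh11 (OB-cadherin) were at 1.01 per 10000 in PV, 1.07 in SST and 1.50 in VIP interneurons, with overlapping intervals. Next was a Pcdh15 intron (chr10:73301812-73302686) with 32.7 and 29.5 in PV and 3.10 to 9.61 in the other 4 samples (2.45 ± 0.36, adjusted p = 0.00024). Pcdh15 is known from the tip links of hair cells. Among the regions that were lower in PV, a Cdh13 intron (chr8:118578565-118579427) had 2.78 and 4.66 in PV, 8.59 and 10.5 in SST and 43.6 and 37.8 in VIP (−2.40 ± 0.44, adjusted p = 0.0010), and was called higher in VIP (2.75 ± 0.32). An intron of Cdh2 (N-cadherin) had at least 10.4 in both PV samples and 0.601 to 3.58 in the other 4 samples (3.12 ± 0.52, adjusted p = 0.00058), and DESeq2 gave no adjusted p for it.

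In SST nuclei a Cdh22 intron (chr2:165201538-165202605) had 26.5 and 23.0 in SST, 6.25 and 4.66 in PV and 8.85 and 5.41 in VIP (1.97 ± 0.35, adjusted p = 0.0013). Cdh22 RNA was also highest in SST among the interneuron classes, and the call was lost with DESeq2. The region at the start of Cdh22 did not pass the test in SST (0.09 ± 0.35, adjusted p = 0.91 by edgeR). A Cdh13 intron 935 kb into the gene (chr8:119218120-119218858) had 11.5 and 9.31 in SST, 6.95 and 2.33 in PV and 0 and 0.601 in VIP (2.90 ± 0.61, adjusted p = 0.0044), a call that DESeq2 did not make. A coding exon of Pcdh1 had 18.6 and 16.8 in SST and 0.601 to 4.17 in the other samples (2.98 ± 0.47, adjusted p = 0.00063), although Pcdh1 had 0 UMIs in SST nuclei. The floor of 3 UMIs, which stands in for 0 in folds, is a level of 0.0383 there and not an upper limit. A Pcdh9 intron (chr14:93350735-93351513) was less accessible in SST, at 1.43 and 2.48 against 7.64 to 16.2 (−2.28 ± 0.56, adjusted p = 0.011), which DESeq2 did not call.

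Regions within 1 kb of the start of a gene were also read. At Pcdh8, whose transcripts were highest in VIP interneurons, the region over the start (chr14:79770928-79771662) had 113 and 142 reads per 1000000 in VIP, 77.3 and 100.5 in SST and 68.8 and 76.9 in PV (0.66 ± 0.19, adjusted p = 0.0072 by edgeR). A second region that overlaps it (chr14:79770523-79771123) had 41.5 and 42.6 in VIP, 10.7 and 20.5 in SST and 12.5 and 10.1 in PV (1.65 ± 0.30, adjusted p = 0.00025 by edgeR). The start of Pcdh20 (chr14:88470554-88471438) had 57.2 and 59.5 in VIP, 21.5 and 38.5 in SST and 26.4 and 20.2 in PV (1.13 ± 0.26, adjusted p = 0.0019). At Pcdh10 (chr3:45377941-45378662) the values were 159 and 163 in VIP, 103 and 101 in SST and 84.8 and 63.7 in PV (0.88 ± 0.17, adjusted p = 0.00049). The start of Pcdh17, whose RNA in VIP was just under the 2-fold limit, was not called. It had 92.6 and 93.7 in VIP, 88.7 and 114 in SST and 110 and 105 in PV (−0.17 ± 0.18, adjusted p = 0.46 by edgeR). At Pcdh8, Pcdh20 and Pcdh10, both VIP samples were above the other 4 in each of the 4 regions given, of which those at Pcdh8 share bases. DESeq2 called all 4 regions too, and only the region over the start of Pcdh8 lost its call without a replicate (VIP replicate 2). The DESeq2 log2 differences in VIP lay a median of 0.26 above those of edgeR over all tested regions. The part of this shift in these calls, and in the calls of lower accessibility in VIP that DESeq2 did not make, was not tested.

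Starts of other members were less accessible in VIP. The region over the start of Pcdh7 (chr5:57717768-57718586) had 8.17 and 10.8 in VIP, 29.3 and 21.7 in SST and 37.5 and 52.8 in PV (−1.82 ± 0.34, adjusted p = 0.00032), and those of Pcdh9 (−0.51 ± 0.15, adjusted p = 0.0097), Pcdh19 (−1.54 ± 0.41, adjusted p = 0.0047) and Cdh8 (−1.20 ± 0.38, adjusted p = 0.014) were also lower. With DESeq2 only Pcdh7 of these 4 starts kept its call (adjusted p = 0.47 for Pcdh9, 0.082 for Pcdh19 and 0.30 for Cdh8). Leaving out VIP replicate 1 ended the calls of Pcdh9 (adjusted p = 0.33) and Cdh8 (0.20), leaving out VIP replicate 2 those of Pcdh9 (0.12) and Pcdh19 (0.084), and leaving out PV replicate 1 that of Pcdh9 (0.058), all by edgeR. The starts of Pcdhgc5 (−2.48 ± 0.60, adjusted p = 0.0025 by edgeR) and Cdh20 (−0.66 ± 0.24, adjusted p = 0.032 by edgeR) were lower in VIP as well. So was a second region at the start of Pcdh7, which overlaps the first (−1.22 ± 0.28, adjusted p = 0.0020 by edgeR). DESeq2 made none of these 3 calls (adjusted p = 0.16, 0.52 and 0.10). Higher in PV were regions at the starts of Cdh4 (0.68 ± 0.20, adjusted p = 0.019) and Pcdh18 (0.77 ± 0.27, adjusted p = 0.039), whose transcripts were lower in PV than in the other interneurons, and DESeq2 made neither call (adjusted p = 0.23 and 0.37). Start regions of Pcdh1 (0.96 ± 0.30), Pcdh19 (1.44 ± 0.35) and Pcdh7 were also higher in PV by edgeR. Lower in PV were start regions of Pcdh8 (−1.18 ± 0.35, adjusted p = 0.019), Pcdh10 (−0.78 ± 0.19, adjusted p = 0.0054) and Pcdh20 (−0.84 ± 0.29, adjusted p = 0.038). Transcripts of Pcdh8 and Pcdh20 were also lower in PV. In all, DESeq2 called 4 member regions higher and 7 lower in PV. Pcdh7 transcripts were at 2.70 in VIP, 2.80 in PV and 3.45 in SST, and the intervals of VIP and PV overlapped. Cdh20 had 70.2 and 70.7 at its start in PV against 27.9 to 35.1 (1.20 ± 0.23, adjusted p = 0.0012, or 0.028 with DESeq2 and 0.084 by edgeR without the read filter), while its transcripts were at 0.205 in PV and 0.511 in VIP. Neither start region of Cdh13 passed the test in SST (0.12 ± 0.32 and 0.40 ± 0.34, adjusted p = 0.86 and 0.51), where Cdh13 RNA was 4.92-fold higher.

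The middle 300 bases of 4 regions named above, from GRCm38.p6 on the plus strand, are printed. So are the 250 bases before the start of Pcdh8, Pcdh20 and Pcdh10, from the RefSeq promoter table on the strand of each gene. Those of Pcdh8 and Pcdh10 lie within the start regions given above, and most of those of Pcdh20 lie outside its start region. Capitals mark matches, on both strands, to TAATT (a homeodomain core), TGANTCA (the AP-1 site), CAGCTG (an E-box), TGACG (the core of the site bound by CREB) and TATAAA (the TATA box). These letters occur in 26.2%, 13.0%, 26.3%, 13.7% and 10.1% of the middle 300 bases of all regions, and in 25.0%, 6.75%, 13.0%, 17.8% and 12.4% of all promoters of 250 bases. A match is a description of the letters only. The promoter table held 16 of the 50 members.
Cdh4 intron, higher in VIP (chr2:179828997-179829296): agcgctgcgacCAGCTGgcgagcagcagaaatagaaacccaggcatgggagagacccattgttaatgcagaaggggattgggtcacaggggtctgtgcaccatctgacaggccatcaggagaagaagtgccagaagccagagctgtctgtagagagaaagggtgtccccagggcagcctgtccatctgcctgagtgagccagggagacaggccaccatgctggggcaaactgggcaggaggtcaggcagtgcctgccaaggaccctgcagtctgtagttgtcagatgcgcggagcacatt
Cdh13 intron, higher in VIP and lower in PV (chr8:118578847-118579146): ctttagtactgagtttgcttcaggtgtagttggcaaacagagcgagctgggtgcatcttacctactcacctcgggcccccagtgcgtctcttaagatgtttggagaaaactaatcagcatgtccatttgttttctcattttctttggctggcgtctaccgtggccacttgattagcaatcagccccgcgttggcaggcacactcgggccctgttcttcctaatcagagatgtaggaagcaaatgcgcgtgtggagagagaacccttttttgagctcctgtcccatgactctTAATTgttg
Cdh22 intron, higher in SST (chr2:165201922-165202221): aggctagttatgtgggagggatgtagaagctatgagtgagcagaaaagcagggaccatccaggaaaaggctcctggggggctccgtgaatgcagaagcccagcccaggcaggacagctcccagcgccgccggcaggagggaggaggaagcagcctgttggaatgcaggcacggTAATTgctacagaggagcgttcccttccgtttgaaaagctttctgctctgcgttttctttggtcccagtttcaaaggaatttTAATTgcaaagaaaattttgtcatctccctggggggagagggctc
Cdh11 intron, higher in PV (chr8:102716071-102716370): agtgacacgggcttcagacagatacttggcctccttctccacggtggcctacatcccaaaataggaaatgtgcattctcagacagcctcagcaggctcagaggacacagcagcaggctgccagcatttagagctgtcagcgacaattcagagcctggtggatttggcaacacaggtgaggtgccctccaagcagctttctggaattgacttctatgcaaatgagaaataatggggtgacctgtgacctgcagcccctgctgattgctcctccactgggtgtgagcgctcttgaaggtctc
Pcdh8 promoter (chr14:79771313-79771562, minus strand): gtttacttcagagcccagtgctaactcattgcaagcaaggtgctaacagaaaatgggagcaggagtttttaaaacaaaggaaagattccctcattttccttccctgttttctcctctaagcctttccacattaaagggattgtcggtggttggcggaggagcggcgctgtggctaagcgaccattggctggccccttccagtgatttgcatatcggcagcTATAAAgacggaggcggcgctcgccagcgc
Pcdh20 promoter (chr14:88471397-88471646, minus strand): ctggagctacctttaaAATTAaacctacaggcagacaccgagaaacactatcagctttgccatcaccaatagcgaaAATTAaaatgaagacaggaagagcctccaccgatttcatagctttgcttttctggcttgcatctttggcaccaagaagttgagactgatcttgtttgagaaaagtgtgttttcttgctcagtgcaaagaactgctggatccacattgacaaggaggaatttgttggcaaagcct
Pcdh10 promoter (chr3:45378148-45378397, plus strand): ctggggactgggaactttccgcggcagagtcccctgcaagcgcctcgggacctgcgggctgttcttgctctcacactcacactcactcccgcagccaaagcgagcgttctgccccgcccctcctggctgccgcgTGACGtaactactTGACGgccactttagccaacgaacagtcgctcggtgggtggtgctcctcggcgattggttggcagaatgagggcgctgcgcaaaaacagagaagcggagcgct

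The 3 promoters shared none of the 5 motifs. The Pcdh8 promoter held TATAAA once, the Pcdh20 promoter TAATT 2 times, and the Pcdh10 promoter TGACG 2 times. The Cdh22 intron that was more accessible in SST held TAATT 2 times, and the Cdh11 intron held none of the 5.

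Of the 287 elements screened in the virus, 8 lie nearest a cadherin or protocadherin gene and 5 nearest a member: GRE17 and GRE159 (Pcdh9), GRE156 (Pcdh18), GRE13 (Pcdh17) and GRE196 (Cdh20). The study kept conserved regions only and picked the 287 with the strongest ATAC-Seq signal in SST relative to PV and VIP nuclei. Nearest does not mean target. Viral UMIs per nucleus in SST interneurons over all other gated neurons gave 5.08 for GRE159, 3.82 for GRE17, 3.09 for GRE156, 3.04 for GRE13 and 1.71 for GRE196, against a median of 2.05 over the 287 (quartiles 1.50 and 2.91). GRE17 drove 0.649 UMIs per SST nucleus and 0.170 per other neuron, and was higher in SST in both library sets (2.64 and 5.32). GRE156, upstream of Pcdh18, drove 0.343 and 0.111 (2.08 and 4.75). GRE159 drove 0.144 and 0.0284, with ratios of 3.25 and 8.15 in the 2 sets. The other gated neurons are mostly excitatory, so these ratios are not those over each interneuron class. In PV nuclei GRE159 drove 0.120 UMIs per nucleus, GRE156 0.183, GRE17 0.197, GRE13 0.104 (0.177 in SST) and GRE196 0.0116 (0.0380 in SST). In VIP nuclei GRE196 drove 0.0577, more than in SST. A single nucleus gave 22.7% of the SST UMIs of GRE159, 14.1% of those of GRE13, 9.92% of those of GRE156, 8.28% of those of GRE17 and 31.0% of those of GRE196, which had 29. The 300 bases of GRE156 and GRE17, the pair with the most UMIs, are printed on the plus strand of GRCm38.p6 with the same motifs in capitals.
GRE156 (chr3:49841997-49842296): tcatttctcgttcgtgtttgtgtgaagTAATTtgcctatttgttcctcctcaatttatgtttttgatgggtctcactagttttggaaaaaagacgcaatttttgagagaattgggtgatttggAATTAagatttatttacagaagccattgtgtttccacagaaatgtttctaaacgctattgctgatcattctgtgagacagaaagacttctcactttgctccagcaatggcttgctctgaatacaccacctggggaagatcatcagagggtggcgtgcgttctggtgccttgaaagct
GRE17 (chr14:94023230-94023529): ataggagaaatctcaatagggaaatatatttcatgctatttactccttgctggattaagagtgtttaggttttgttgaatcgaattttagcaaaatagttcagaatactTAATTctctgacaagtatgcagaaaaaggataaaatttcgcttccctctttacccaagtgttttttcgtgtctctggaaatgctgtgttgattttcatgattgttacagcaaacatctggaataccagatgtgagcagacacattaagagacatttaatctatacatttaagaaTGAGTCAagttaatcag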

How the data were processed

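snRNA-Seq and ATAC-Seq files of 7 samples were used. Per the paper's methods, the authors sorted inDrops reads with the inDrops pipeline on GRCm38 plus viral barcodes, and the deposited tables hold UMI counts per nucleus and gene. ATAC-Seq reads were trimmed with Trimmomatic 0.33 and aligned with Subread 1.4.6-p3 to mm10, and the deposited table holds read counts on union regions that include other Cre lines. Peak lists and the authors' own specificity ratios were not used. No column of another sample was present (0).

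Nuclei had more than 200 UMIs. Interneuron, glial and endothelial gates needed at least 3 marker UMIs, and the excitatory gate and the layers at least 2. The SST gate also needed at least 2 Sst UMIs among its 3. Every gate needed 3 times the rival lists. The NPY gate also needed Sst, Vip and Pvalb at 0 UMIs, and Npy was not a rival for the SST, PV and VIP gates. Npy was at 27.9 per 10000 in the SST gate and 7.81 in the VIP gate. Doublets were limited by excluding nuclei with mixed markers, and no doublet caller was run. Genes were compared where at least 5 UMIs were expected on each side. Levels are UMIs per 10000 with exact Poisson 95% intervals, and fold intervals are exact conditional binomial ones. A gene at 0 UMIs was set to a floor of 3 UMIs. ATAC-Seq counts (1801883 to 2256073 reads in regions per sample) were tested with edgeR 4.0.16 in R 4.3.3 (filterByExpr, TMM, quasi-likelihood, Benjamini-Hochberg adjustment, 5% FDR), and with DESeq2 1.42.0 as an alternative. A median of 14 to 19 reads per member region and sample limits the precision. Scripts were tested on simulated data. Genes were placed with GENCODE M21.

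Members and lists were chosen with earlier results of these data known. Named by rule were up to 6 members with the largest fold in each direction for interneurons against excitatory neurons, up to 3 per type, and up to 3 regions with the smallest p per contrast and direction. Other named genes, the regions within 1 kb of a start, and the motifs were chosen after values were seen. Replicate numbers did not pair the ATAC-Seq samples.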

Additional observations from a re-analysis of the deposited data

Results flagged for a closer look

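In 4 of the 32 groups of 10 libraries behind the named genes, 1 library stood apart from the rest by Dixon's criterion. Chance meets this criterion in about 1 in 20 groups of independent, normally spread values. Many of these groups hold small counts, some at 0, and groups share nuclei, so that rate need not hold here. Cdh13 in interneurons was at 4.25 UMIs per 10000 in library 4 of set 1 (75 UMIs), where the next library was at 3.13. Cdh19 in astrocytes was at 1.72 in library 4 of set 2 (14 UMIs), where the next was at 0.949. Pcdhb18 in layer 6 was at 0.895 in library 5 of set 1 on 4 UMIs, next to 0.431. Pcdhgc5 in layer 2/3 was at 0.595 in library 1 of set 2 on 6 UMIs, next to 0.301.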

How the results depend on the processing

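Alternatives were run for the counts of members and of member regions, 32 gene comparisons, 18 region comparisons and, chosen after seeing the data, 22 further calls at start regions, and none of these reversed its direction. Catenins, atypical cadherins and the lower calls within interneuron classes and layers were recomputed without each library only. Nothing was run for GRE ratios. Of 576 alternative gene values, 566 stayed within the spread and 10 moved, and of 179 region values, 164 kept their call and 15 lost it. Of 198 values for the start regions, 131 kept their call and 67 lost it, 13 of the 22 with DESeq2 and 17 without the read filter. With library set 1 alone, 2 of 43 members were lower in interneurons (8.86% of all genes) in place of 4 of 46. At a fold of 3, 4 of 46 members were higher (3.38% of all genes) and 0 lower (3.72%) in interneurons, and 4 of 39 were higher in a layer (4.35%). DESeq2 called 1 region higher and 0 lower of 115 in SST, 4 and 7 of 77 in PV, and 29 and 2 of 235 in VIP. Without the read filter 1022 member regions were tested, and the counts were 2 and 0 in SST (0.133% and 0.0506% of all regions), 3 and 2 in PV (0.234% and 0.159%), and 40 and 9 in VIP (3.46% and 0.963%). Leaving out 1 replicate gave 7 to 12 regions higher and 3 to 6 lower in SST, 10 to 34 and 5 to 31 in PV, and 24 to 49 and 17 to 37 in VIP, of 154 to 171 tested, where the lone sample left is assumed to vary like the other groups. Leaving out 1 library gave 8 to 10 members higher and 3 to 5 lower in interneurons, 11 to 15 in an interneuron class, 11 to 17 in a layer, and 6 higher and 35 to 37 lower in glial or endothelial types. With the replicate number as a block the counts were 8 and 4 in SST, 27 and 16 in PV and 30 and 32 in VIP. Leaving out 1 library ended 32 of 188 gene calls of members and 9 of 47 of catenins and atypical cadherins, as an alternative chosen after seeing the data. Same-numbered samples did not deviate together (correlations 0.0213, −0.0340 and 0.0290). The cause of these shifts was not tested. All nuclei are 1 sample, so no value here measures the spread between animals, and a small sum of UMIs, as low as 49709 in OPCs, limits what can be compared.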
